A study of Arabidopsis thaliana with 16 samples.

Results

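IAA29, IAA30, LBD16, LBD29 and HAT2 are 5 genes for transcription regulators that earlier results of these data placed among the genes raised by auxin. They were taken by symbol from the platform annotation, 5 of the 13356 genes that a probe set annotated to 1 gene names, and each was measured by 1 probe set. The choice used their differences between treatments, so every treatment effect on them is given below as a description without a test. Only the differences between the plant lines were tested for them.

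The values came from Arabidopsis thaliana seedlings of the Columbia ecotype, 14 days old, on Affymetrix ATH1 arrays, 2 arrays for each of 8 groups. Seedlings of a line overexpressing the rice gene OsGRX8 (OX) and of the wild type (WT) spent 3 h in 100 µM indole-3-acetic acid (the auxin IAA), 200 mM NaCl, 25 µM methyl viologen (MV, a herbicide that generates superoxide in light) or water. The OsGRX8 protein is a glutaredoxin of the CC type, enzymes that reduce disulfide bonds. The sources used here give neither the promoter driving the transgene nor the number of independent lines, and the transgene's own level was not analysed here. The 2 arrays of a group are described by the submitters as biological replicates. Whole seedlings were used, so fewer cells of a type and less RNA per cell cannot be told apart. Signals of the shoot marker RCA (10.2 to 11.6) and the root marker PYK10 (8.62 to 9.69) were present on every array, while the pollen marker AMS (0.89 to 1.41) and the seed marker OLEO3 (0.96 to 1.86) lay near the absent bacterial control trp. Some of these markers moved with treatment. RCA stood at 11.5 on the OX NaCl arrays and at 11.53 to 11.60 on the WT NaCl arrays, at 10.75 to 11.21 in OX and 10.15 to 11.29 in WT after IAA, and at 11.19 to 11.31 in water. The root hair marker EXPA7 stood after NaCl at 1.46 to 1.56 in OX and 1.14 to 1.53 in WT, against 2.04 to 2.203 in OX water and 1.92 to 2.07 in WT water. After IAA it stood at 1.68 to 2.102 in OX and 1.45 to 1.48 in WT. Under MV it lay above water in OX, at 2.25 to 2.30, and below water in WT, at 1.29 to 1.63. EXPA7 was thus low on every array, near the trp control, whose highest probe set read 1.21. The part of these markers in the members' values was not tested.

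Auxin acts by joining an F-box receptor to an Aux/IAA repressor, which is then destroyed, and this frees auxin response factors to switch on their targets. Many Aux/IAA genes are themselves targets, which closes a feedback loop. LBD16 and LBD29 are direct targets of the response factors ARF7 and ARF19 and promote the start of lateral roots. HAT2 belongs to the class II homeodomain-leucine zipper proteins, repressors known from auxin and shade responses and from hypocotyl elongation.

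All values are log2 signals, so a difference of 1 is a doubling. The mean of the trp probe sets, which marks the signal of an absent transcript, lay between 0.82 and 0.99 on the 16 arrays. In water IAA29, LBD16 and LBD29 lay only 0.53 to 1.38 above that mean on the same array and IAA30 0.97 to 1.52, so their differences from water start near the signal of an absent transcript. HAT2 lay 4.998 to 5.65 above it. Levels are compared between arrays for 1 probe set at a time, never between probe sets.

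IAA29, an Aux/IAA repressor also known as a target of the light-regulated PIF factors, had the largest difference of the 5. In IAA it stood at 6.35 and 6.64 on the OX arrays and at 5.21 and 6.79 on the WT arrays. In NaCl it stood at 5.44 and 6.01 on the OX arrays and at 5.90 and 5.16 on the WT arrays. MV gave 1.21 and 1.13 in OX and 1.47 and 1.22 in WT, against water values of 1.53 and 1.62 in OX and 1.42 and 2.21 in WT. Every IAA and NaCl array lay far above every MV and water array, and the IAA and NaCl groups of the wild type overlapped. The excess over water in IAA was 4.92 ± 0.42 (SE of the fit, n = 2 arrays a group) in OX, which is 30.3-fold, and 4.19 ± 0.42 in WT, which is 18.2-fold. The WT value was 4.98 without WT IAA replicate 1 and 3.397 without WT IAA replicate 2. The excess in NaCl was 4.14 ± 0.42 in OX (17.7-fold) and 3.72 ± 0.42 in WT (13.1-fold). Under MV the signal was only 0.25 to 0.48 above the mean of trp on the same array, so a fall below water could be seen only over a short range, and the differences there were -0.41 ± 0.42 in OX and -0.47 ± 0.42 in WT.

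IAA30 encodes an Aux/IAA protein without the degron through which auxin receptors bind most members of the family. Its signals in IAA were 4.07 and 4.23 in OX and 3.82 and 4.47 in WT. NaCl gave 4.22 and 3.76 in OX and 4.46 and 3.94 in WT. MV gave 2.15 and 2.58 in OX and 2.11 and 2.13 in WT, against 2.09 and 1.86 in OX water and 2.41 and 1.97 in WT water. The 4 IAA and NaCl groups overlapped one another, and all lay above the MV and water groups. The MV arrays of OX lay above its water arrays without overlap. The differences from water were nearly equal in both treatments: in IAA 2.17 ± 0.26 in OX and 1.96 ± 0.26 in WT, and in NaCl 2.01 ± 0.26 in each line. In MV they were 0.39 ± 0.26 in OX and -0.06 ± 0.26 in WT.

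LBD16, an activator of lateral root founder cell division, stood at 3.502 and 3.67 in OX and at 3.19 and 3.55 in WT after IAA. After NaCl it stood at 3.32 and 2.61 in OX and at 3.22 and 2.59 in WT. MV gave 1.93 and 1.65 in OX and 1.69 and 1.65 in WT, against 1.79 and 1.62 in OX water and 1.69 and 1.77 in WT water. The MV and water signals could hardly be separated, and the NaCl arrays were the most spread. The differences from water in IAA were 1.88 ± 0.25 in OX and 1.64 ± 0.25 in WT, and in NaCl 1.26 ± 0.25 in OX and 1.17 ± 0.25 in WT. MV differed from water by 0.09 ± 0.25 in OX and by -0.06 ± 0.25 in WT.

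LBD29 works with LBD16 in lateral root initiation. It was at 4.84 and 4.38 in OX and at 3.63 and 5.32 in WT after IAA. After NaCl it was at 2.89 and 2.74 in OX and at 3.59 and 2.11 in WT. Signals in MV were 1.37 and 1.26 in OX and 1.52 and 1.60 in WT, against 1.43 and 1.43 in OX water and 1.42 and 1.58 in WT water. The lowest IAA array, at 3.63, lay just above the highest NaCl array, at 3.59, and both come from the wild type. LBD29 in IAA exceeded water by 3.18 ± 0.48 in OX (9.04-fold) and by 2.98 ± 0.48 in WT (7.88-fold). In NaCl it exceeded water by 1.38 ± 0.48 in OX and by 1.35 ± 0.48 in WT. The WT values rest on arrays that were far apart: without IAA replicate 1 the WT difference in IAA was 3.82 and without IAA replicate 2 it was 2.14. Without NaCl replicate 1 the WT difference in NaCl was 0.62, and without NaCl replicate 2 it was 2.09. MV differed from water by -0.12 ± 0.48 in OX and by 0.07 ± 0.48 in WT.

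HAT2 lay well above the trp controls on every array. Its signals after IAA were 8.40 and 8.24 in OX and 7.77 and 8.03 in WT. After NaCl they were 8.64 and 8.82 in OX and 8.90 and 8.62 in WT. MV gave 5.17 and 5.19 in OX and 5.29 and 5.11 in WT, against 5.84 and 6.05 in OX water and 6.04 and 6.48 in WT water. HAT2 was the member with the clearest steps: NaCl above IAA, IAA above water, and water above MV, with no overlap at any of these steps in either line. The excess over water in IAA was 2.37 ± 0.18 in OX (5.18-fold) and 1.64 ± 0.18 in WT (3.12-fold). In NaCl it was 2.78 ± 0.18 in OX (6.89-fold) and 2.50 ± 0.18 in WT (5.66-fold). In MV the differences were -0.77 ± 0.18 in OX and -1.06 ± 0.18 in WT, so the signal was 0.588 and 0.481 times that in water.

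**Figure D1:**
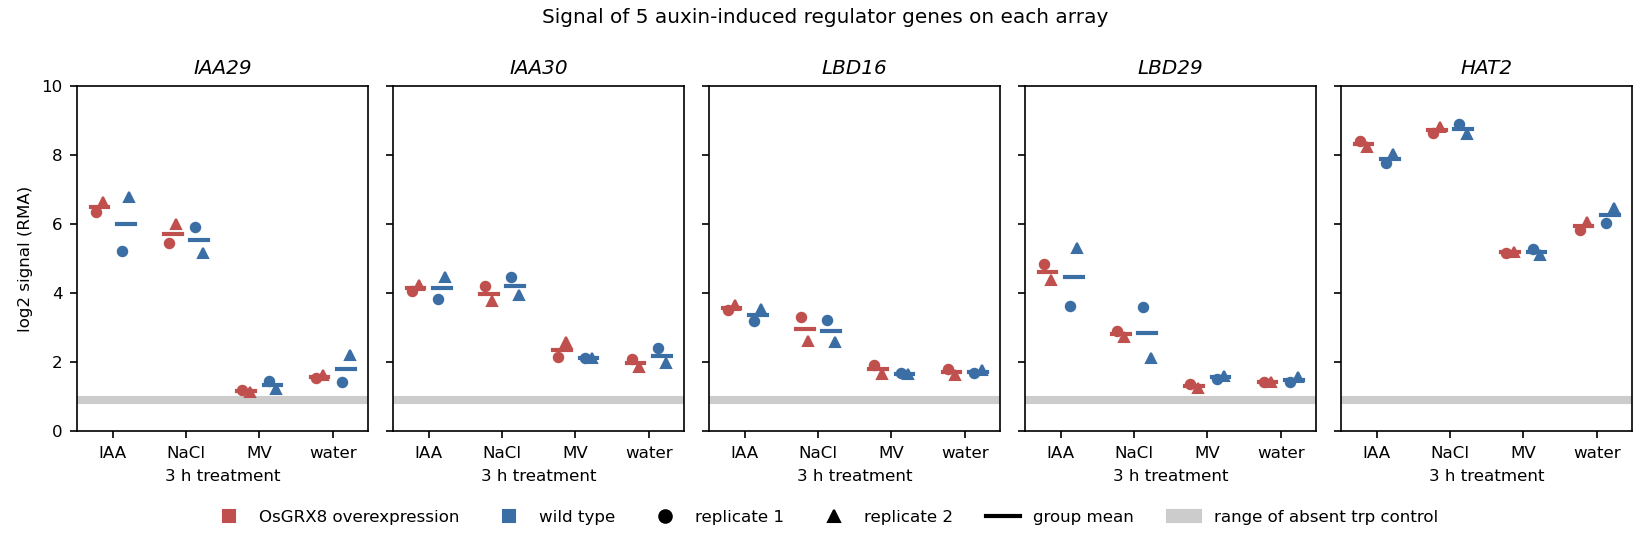
Log2 signal of the 5 genes on each array, by treatment for 3 h, with OX in red and WT in blue, circles for replicate 1, triangles for replicate 2 and bars for group means; the grey band is the range of the mean trp control. The IAA and NaCl arrays of every gene lie above its MV and water arrays, and only HAT2 has MV arrays clearly below its water arrays.

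The members' arrays can be set beside those of all 22746 probe sets. All 5 lay above water without overlap in both lines after IAA (18.4% of probe sets in OX and 21.3% in WT) and after NaCl (30.8% in OX and 27.4% in WT). In MV 3 members lay below water without overlap in OX and 2 in WT (25.2% and 26.5% of probe sets), and 1, IAA30, lay above it in OX and none in WT (22% and 20.8% of probe sets). Nothing is read from these counts, because the members were chosen on these contrasts. The median member difference in IAA was 2.37 in OX and 1.96 in WT, against 0.00 and 0.03 over all probe sets. In NaCl it was 2.01 in each line, against 0.02 in OX and -0.02 in WT over all probe sets. In MV it was -0.12 in OX and -0.06 in WT, against -0.02 in each line over all probe sets.

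**Figure D2:**
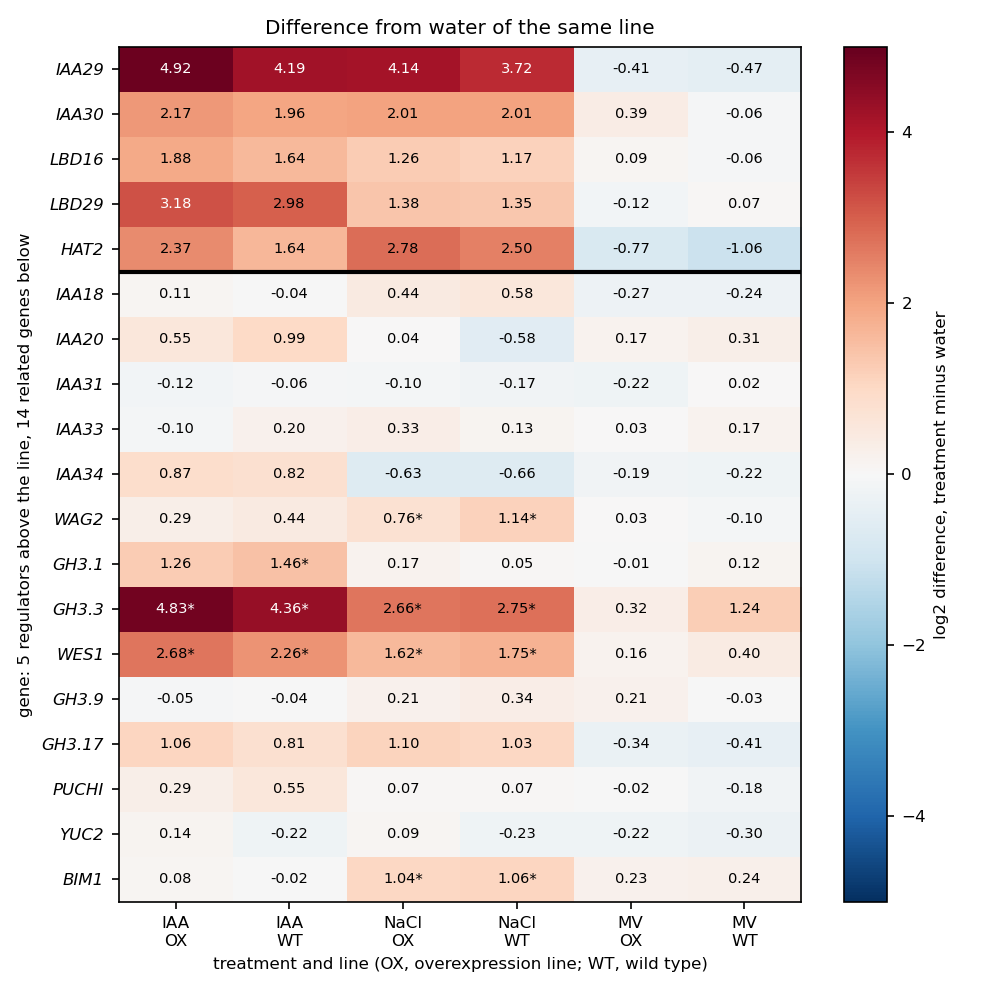
Log2 difference from water of the same line for the 5 regulators (above the line) and 14 related genes (below it) under IAA, NaCl and MV, with OX left of WT. Asterisks mark related genes past the adjusted threshold; the 5 regulators carry none because no call is given for them, and the largest value is 4.92 for IAA29 in OX after IAA.

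The direct difference between auxin and salt set the members apart from each other. LBD29 was higher after IAA than after NaCl by 1.79 ± 0.48 in OX and by 1.62 ± 0.48 in WT, without overlap of the arrays in either line. The WT value was 2.47 without WT IAA replicate 1, 0.78 without WT IAA replicate 2, 2.36 without WT NaCl replicate 1 and 0.89 without WT NaCl replicate 2. For LBD16 the difference was 0.62 ± 0.25 in OX and 0.47 ± 0.25 in WT, where its arrays overlapped. With 1 array left out it ran from 0.27 to 0.97 in OX and from 0.15 to 0.78 in WT. For IAA29 it was 0.77 ± 0.42 in OX and 0.47 ± 0.42 in WT, also with overlap in WT. The WT value of IAA29 had no settled direction: it was 1.26 without WT IAA replicate 1 and -0.32 without WT IAA replicate 2. IAA30 differed by 0.16 ± 0.26 in OX and by -0.06 ± 0.26 in WT, within its error in each line. HAT2 ran the other way, with a difference IAA minus NaCl of -0.41 ± 0.18 in OX and -0.86 ± 0.18 in WT, with no overlap. Without overlap, 3 members were higher after IAA in OX and 1 in WT, and 1 was lower in each line. Over all probe sets 25.9% were higher in this way in OX and 30.7% in WT, and 28.6% were lower in OX and 23.7% in WT.

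The comparison of the lines, which the choice of members did not use, asks whether OsGRX8 overexpression shifts these genes. None of 20 differences between OX and WT in single conditions passed the threshold, a Benjamini-Hochberg adjusted p under 0.05 over 22746 probe sets (limma). Of the 20, 1 had an unadjusted p under 0.05, HAT2 in IAA, where 1666 of the 22746 probe sets had one. None of the 5 differences over the mean of the 4 conditions passed, with none under 0.05 unadjusted, against 1331 of the 22746 probe sets. In these comparisons 0% of the 22746 probe sets were called in the fit of all arrays. For OX minus WT in IAA that 0% depended on WT IAA replicate 1: without this array the comparison called many probe sets, though no member. The differences over 4 conditions ran between -0.05 for LBD29 and 0.09 for LBD16. The 95% interval was -0.39 to 0.53 for IAA29, -0.33 to 0.24 for IAA30 and -0.17 to 0.36 for LBD16. For LBD29 it was -0.57 to 0.46, and for HAT2 -0.18 to 0.21. The intervals of HAT2 were the narrowest and those of LBD29 the widest.

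HAT2 had the single smallest p of the line comparisons. After IAA it was at 8.40 and 8.24 in OX and at 7.77 and 8.03 in WT, which do not overlap (12.3% of probe sets lay higher in OX without overlap). The difference was 0.42 ± 0.18, with an unadjusted p of 0.0395 and an adjusted p of 0.674 (limma). In water HAT2 differed by -0.31 ± 0.18 the other way, with overlapping arrays, and this did not pass. Its response to IAA, the difference from water, was thus 2.37 in OX and 1.64 in WT, and the difference between the responses was 0.73 ± 0.26, with an interval of 0.17 to 1.29. That interaction had an unadjusted p of 0.0146 and an adjusted p of 0.9998 (limma), so it did not pass. None of the 15 tests of a different response between the lines passed, and 0% of probe sets were called in them. For the response to IAA that 0% also depended on WT IAA replicate 1 and was not kept without it. The HAT2 responses to NaCl and to MV differed between the lines by 0.28 ± 0.26 and 0.29 ± 0.26.

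**Figure D3:**
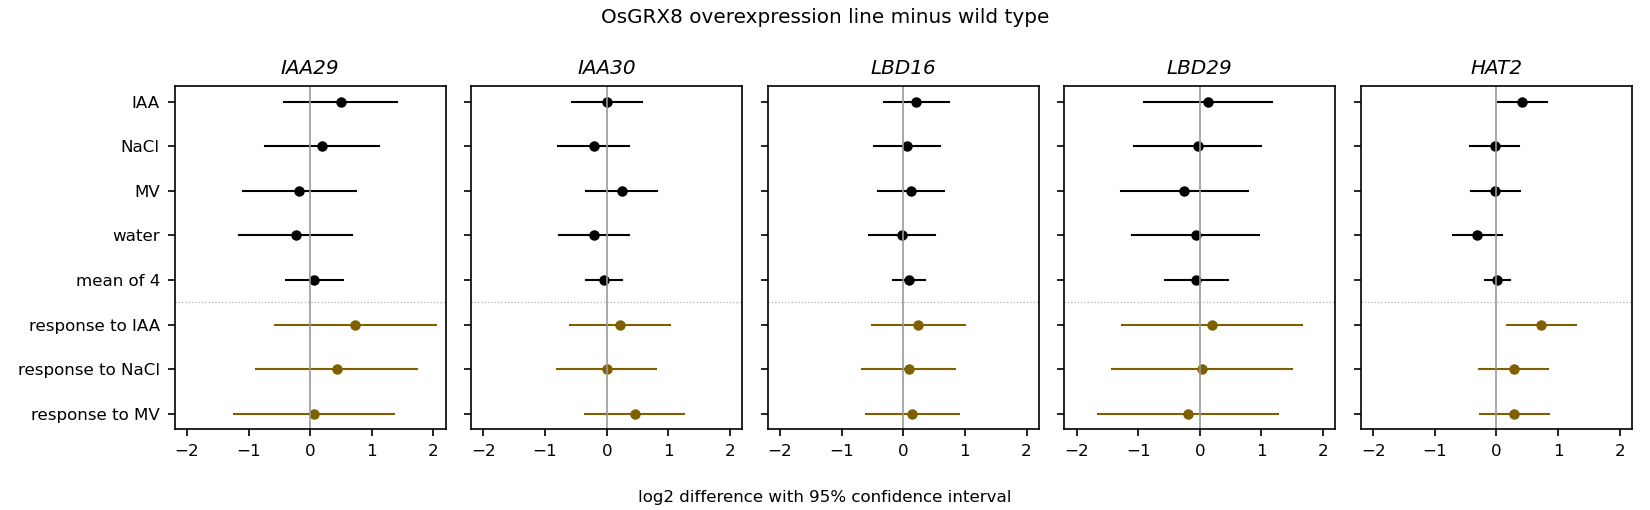
Log2 difference OX minus WT of each gene in 4 conditions and over their mean (black), and the difference between the lines in response to each treatment (brown), with 95% intervals. All intervals but those of HAT2 after IAA and its response to IAA, 0.17 to 1.29, include 0, and no adjusted p passed.

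IAA29 gave the largest line difference, 0.50 ± 0.42 after IAA. It turned to -0.29 without WT IAA replicate 1 and was 1.28 without WT IAA replicate 2. LBD29 differed between the lines after IAA by 0.13, and by -0.71 and 0.98 without those same arrays. IAA30 differed by 0.01, and by -0.32 and 0.33 without them. The direction of these 3 differences thus depended on single arrays. That of IAA30 also turned without OX IAA replicate 2 (-0.075), and that of LBD29 without OX IAA replicate 1 (-0.097). LBD16 differed by 0.21, with 0.04 to 0.39 when 1 array was left out, and the 0.42 of HAT2 ran from 0.28 to 0.55.

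The spread between the 2 arrays of a group was uneven among the members. In WT after IAA all 5 stood higher on replicate 2, by 1.58 for IAA29 and 1.69 for LBD29, gaps exceeded by 1.77% and 1.30% of probe sets. The gaps of IAA30 (0.65), LBD16 (0.36) and HAT2 (0.27) were common on that pair of arrays, where the median absolute gap was 0.33 against 0.15 to 0.21 in the other groups. In WT after NaCl all 5 stood lower on replicate 2, with gaps of -1.47 for LBD29, -0.74 for IAA29, -0.63 for LBD16, -0.52 for IAA30 and -0.27 for HAT2. There 0.176% of probe sets had a larger gap than LBD29. The IAA arrays also differed in the 3′ and 5′ probe sets of the actin control, whose difference grows as RNA is shortened. On IAA replicate 2 it was 4.43 in OX and 6.10 in WT, on IAA replicate 1 it was 1.23 in OX and 2.57 in WT, and it was at most 1.85 outside the IAA groups. For thr, a bacterial transcript added to the RNA, it was 3.01 to 3.66 on the IAA arrays and 1.77 to 2.84 elsewhere. The part of RNA quality in the members' values was not tested. With both IAA arrays numbered 2 left out, which was decided once the values had been seen, the excess over water in WT was 3.397 for IAA29 and 2.14 for LBD29. The OX values were then 4.77 for IAA29 and 3.41 for LBD29. With all arrays they were 4.19 and 2.98 in WT and 4.92 and 3.18 in OX.

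**Figure D4:**
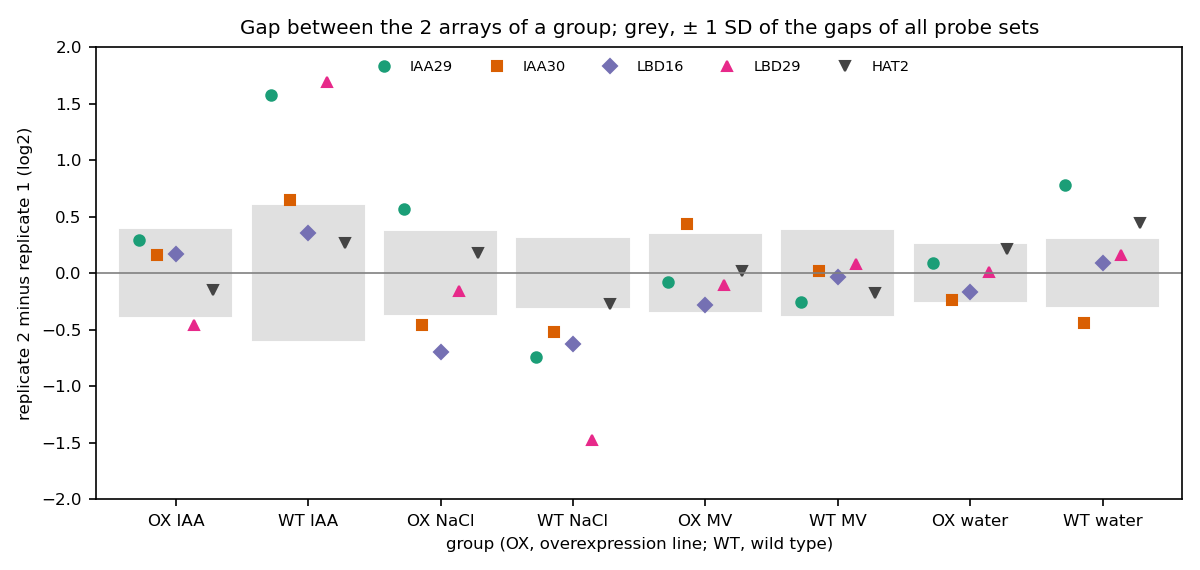
Replicate 2 minus replicate 1 (log2) for the 5 genes in each group, with grey bars for ± 1 SD of the gaps of all probe sets. All 5 points lie above 0 in WT IAA, up to 1.69, and all 5 below 0 in WT NaCl, down to -1.47.

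Related genes from fixed lists place the members among other genes of auxin signalling. Of 167 names in 9 lists, 14 were named by a probe set annotated to 1 gene: 5 further Aux/IAA genes, 5 GH3 genes, WAG2, PUCHI, YUC2 and BIM1. None of the other LBD genes, class II HD-ZIP genes, response factors or receptors was named here. These genes were tested with the same threshold, but the lists were chosen with earlier results of these data known. Their comparison between IAA and NaCl was added after values were seen. After IAA 2 of 14 rose in OX and 3 of 14 in WT, where 0.207% and 0.193% of all probe sets were called higher, and none fell (0.00879% and 0.0132% called lower). After NaCl 4 of 14 rose in each line (7.94% of probe sets called higher in OX and 7.61% in WT) and none fell (7.75% and 6.51%). Under MV none passed (limma), with 0 in OX and 1 in WT under an unadjusted p of 0.05. There 1.21% of probe sets in OX and 2.56% in WT were called higher, and 0.246% and 1.77% lower. Some of these counts changed when single arrays were left out, and so did the number of all probe sets called. After IAA in WT that number rose manyfold without WT IAA replicate 1. It fell without WT IAA replicate 2 or either WT water array. The share of all probe sets in WT after IAA is thus not a steady yardstick.

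The GH3 genes, whose enzymes join auxin to amino acids and so lower its free level, held most of the calls. GH3.3 rose after IAA by 4.83 ± 0.38 in OX and 4.36 ± 0.38 in WT and after NaCl by 2.66 ± 0.38 in OX and 2.75 ± 0.38 in WT. WES1 (GH3.5) rose after IAA by 2.68 ± 0.22 in OX and 2.26 ± 0.22 in WT and after NaCl by 1.62 ± 0.22 in OX and 1.75 ± 0.22 in WT. Both genes thus passed in both treatments and both lines. Both calls in WT after IAA are lost when only the compared arrays are fitted (adjusted p = 0.389, limma), a fit that called 0 of all probe sets. GH3.1 behaved otherwise: it rose by 1.46 ± 0.24 in WT after IAA (adjusted p = 0.0354) and stood at 1.26 ± 0.24 in OX (adjusted p = 0.0717, limma). The WT call was lost without WT water replicate 1 (adjusted p = 0.297) or 2 (0.0588, limma). GH3.1 read 1.19 and 1.24 in OX water and 0.97 and 1.56 in WT water, near the trp controls. After NaCl GH3.1 differed from water by 0.17 in OX and by 0.05 in WT. GH3.17 had differences of 0.81 to 1.10 in IAA and NaCl without passing, and GH3.9 stayed within 0.35 of water in every treatment.

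The 5 other Aux/IAA genes measured gave no call against water. After IAA the nearest to a call was IAA34 in OX and IAA20 in WT (adjusted p = 0.215, limma). IAA34 stood 0.87 ± 0.24 above water in OX and 0.82 ± 0.24 in WT, with adjusted p of 0.478 and 0.242 (limma). After NaCl it stood at -0.63 in OX and -0.66 in WT. Between the treatments IAA34 was higher after IAA than after NaCl by 1.50 ± 0.24 in OX and 1.48 ± 0.24 in WT, which passed in both lines (adjusted p = 0.000777 and 0.000864, limma). Its arrays read 2.45 and 3.07 in OX IAA against 1.23 and 1.28 in OX NaCl, and 2.22 and 2.68 in WT IAA against 0.99 and 0.96 in WT NaCl, the last near the trp controls. IAA20, which like IAA30 lacks the degron, was higher after IAA than after NaCl by 1.58 ± 0.25 in WT (adjusted p = 0.000946, limma) and by 0.51 ± 0.25 in OX (adjusted p = 0.213). IAA30 itself did not separate the treatments, as given above. IAA31 and IAA33 lay close to trp, and IAA18 differed from water by at most 0.58.

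WAG2 and BIM1 passed after NaCl and not after IAA. WAG2, a protein kinase that acts on PIN auxin carriers, rose after NaCl by 0.76 ± 0.18 in OX and 1.14 ± 0.18 in WT. It stood at 0.29 in OX and 0.44 in WT after IAA, which did not pass. Its water signals were 1.06 and 1.05 in OX and 1.02 and 1.07 in WT, near the trp controls, so these differences start from the signal of an absent transcript. BIM1, a helix-loop-helix factor of brassinosteroid signalling, rose after NaCl by 1.04 ± 0.27 in OX and 1.06 ± 0.27 in WT and differed from water by 0.08 in OX and -0.02 in WT after IAA. The IAA minus NaCl difference of BIM1 was -0.96 in OX (adjusted p = 0.0285) and -1.08 in WT (adjusted p = 0.0144), and that of WAG2 was -0.47 in OX (adjusted p = 0.0914) and -0.70 in WT (adjusted p = 0.0137; limma). Several of these calls were lost with 1 array fewer (limma). After NaCl the BIM1 call in OX was lost without any 1 of the 4 OX water and NaCl arrays (adjusted p from 0.0763 to 0.114). The BIM1 call in WT was lost without WT water replicate 1 or 2 or WT NaCl replicate 2 (0.0694 to 0.215). The WAG2 call in OX was lost without OX water replicate 1 or 2 or OX NaCl replicate 2 (0.0601 to 0.107), and the WAG2 call in WT was kept in each such fit. Between the treatments, the BIM1 call in OX was lost without any 1 of the 4 OX arrays, that in WT without WT IAA or NaCl replicate 2, and that of WAG2 without either WT NaCl array. PUCHI, a lateral root factor, and YUC2, an auxin synthesis enzyme, passed in no treatment. Between IAA and NaCl, 4 related genes were higher after IAA and 1 lower in OX, and 4 higher and 2 lower in WT. GH3.1, GH3.3 and IAA34 were higher in both lines, WES1 in OX and IAA20 in WT. Of these, GH3.1 in OX was lost without OX IAA replicate 1 (adjusted p = 0.0757), WES1 without OX IAA replicate 2 (0.0507) and GH3.3 in WT without WT NaCl replicate 2 (0.0741, limma). This comparison called 8.7% of probe sets higher and 8.56% lower in OX, and 9.6% higher and 10.3% lower in WT.

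Profiles over the 16 arrays describe which genes ran most like each member, among 3032 named genes whose group means spanned at least 1 log2 unit. The points share treatments and arrays, so these are descriptions. The members were chosen on treatment contrasts, so likeness among them was partly set by that choice. IAA29 was closest to IAA30 (Pearson r = 0.959), LBD16 (0.956) and HAT2 (0.950). By ranks this order changed: the Spearman rho of IAA29 was 0.709 with IAA30, 0.859 with LBD16, 0.829 with HAT2 and 0.918 with LBD29. IAA30 was closest to IAA29, LBD16 (0.948) and WES1 (0.917). LBD16 was closest to IAA29, IAA30 and AT1G72230 (0.945). LBD29 was closest to LBD16 (0.940), AT1G72230 (0.930) and GH3.3 (0.909). HAT2 was closest to AT5G48900 (0.983), which is not a member, ahead of IAA29 and AT3G50340 (0.944). The r of HAT2 with LBD29 was 0.749, the lowest among the 10 pairs of members. AT5G48900 followed the HAT2 steps: the difference from water was 1.20 in OX and 0.94 in WT after IAA, 1.82 in OX and 1.31 in WT after NaCl, and -0.49 in OX and -0.51 in WT in MV.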

How the data were processed

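The deposited table holds log2 probe set values of the authors, 1 column per array, made with RMA per the submitters' processing notes; the sources used here give no software version. Array medians lay between 2.94 and 3.20, and the 2 arrays of a group correlated at 0.966 to 0.994. Of the probe sets, 64 Affymetrix controls were left out and 22746 were tested; 13513 have 1 gene in the platform annotation, 503 several and 8730 none here. The number of arrays limits the precision.

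A linear model with 8 group means was fitted with limma 3.58.1 in R 4.3.3 (eBayes without trend, 8 residual degrees of freedom), with Benjamini-Hochberg adjustment and a threshold of 0.05. The model was tested on simulated data. The members and lists were chosen with earlier results of these data known. Named genes were the members, the called genes of the lists, and the 3 genes most like each member by Pearson r; IAA minus NaCl of related genes was added after values were seen. Alternatives were other normalizations, filters, weights, fits and leaving out each array.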

Additional observations from a re-analysis of the deposited data

How the results depend on the processing

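No member passed in any line comparison under any alternative run, 0 in each. Other probe sets did: OX minus WT in MV called 9 under median centring. Without WT IAA replicate 1, OX minus WT in IAA and the IAA interaction each called many more, so their lack of calls depended on that array. Of 1900 single values recomputed, 48 lost a call, 4 moved by more than the replicate spread (members in MV, under median centring) and 67, all line comparisons of members below the threshold, changed sign. With 2 arrays a group, leaving out 1 array cannot shift a member's treatment difference by more than that spread. The count of 4 therefore says nothing on how much single arrays matter. Another 11 untested member differences near 0 also changed sign, IAA29 IAA minus NaCl in WT (-0.32 without WT IAA replicate 2) among them. With 1 array left out OX minus WT ran as follows. For IAA29 it ran from -0.63 to 0.15 in water, -0.29 to 1.28 in IAA, -0.18 to 0.56 in NaCl and -0.13 to 0.27 over 4 conditions. For IAA30 it ran from -0.43 to 0.0095 in water, -0.32 to 0.33 in IAA, -0.47 to 0.048 in NaCl and -0.13 to 0.037 over 4 conditions. For LBD16 it ran from -0.11 to 0.058 in water, -0.29 to 0.41 in NaCl and -0.019 to 0.26 in MV. For LBD29 it ran from -0.14 to 0.015 in water, -0.71 to 0.98 in IAA, -0.77 to 0.702 in NaCl and -0.27 to 0.16 over 4 conditions. For HAT2 it ran from -0.16 to 0.11 in NaCl, -0.11 to 0.068 in MV and -0.040 to 0.070 over 4 conditions. The interactions ran from -0.057 to 1.52 (IAA) and -0.33 to 0.45 (MV) for IAA29, -0.11 to 0.54 (IAA) and -0.26 to 0.26 (NaCl) for IAA30, -0.26 to 0.44 (NaCl) for LBD16, and -0.65 to 1.04 (IAA) and -0.71 to 0.77 (NaCl) for LBD29. Under median centring the sign turned for OX minus WT of LBD16 in MV (-0.026), LBD29 in NaCl (0.0105) and HAT2 in NaCl (0.0173), and for the interactions of IAA29 in MV (-0.098), LBD16 in MV (-0.013) and IAA30 in NaCl (0.030). Repeated quantile normalization turned the last (0.0695) and HAT2 over 4 conditions (-0.025). Without both IAA arrays numbered 2, the values over 4 conditions of IAA30 (0.017) and LBD29 (0.21) turned. The number of related genes called after IAA in WT (3) was 0 on the compared arrays only, and 2 to 6 when 1 array was left out. After NaCl it was 7 with array weights in WT (4) and in OX (4) 2 to 3 with 1 array left out, and 3 to 4 in WT. After MV it was 0 to 1 in WT without 1 array (0). In OX it was 2 after IAA and 0 after MV in each fit with 1 array left out, and 3 after IAA under some other settings. The causes were not tested. The replicate numbers were not taken as pairs, since deviations correlated at -0.11 to 0.36 and above 0.1 in 9 of 28 pairs. The highest value was that of OX IAA with WT IAA. WT water gave 0.14 with WT IAA, 0.205 with WT NaCl and 0.19 with WT MV. The replicate number as a block left 2 related genes called after IAA in OX and 3 in WT and gave 5 in each line after NaCl (4 without the block), and 0 members in the line comparisons. Lost calls were those of BIM1, WAG2, GH3.1, GH3.3, WES1, IAA20, AT5G47360 and AT5G47380 under some settings. A filter on brighter signals kept 11469 probe sets, with 3 members and 4 related genes. Signals near trp limit what a fall can show.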

Other observations

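Of the 10 genes next to the members on the chromosomes, in the order of a RefSeq annotation, 5 were measured, and they were chosen after the members' values were seen. Beside HAT2, AT5G47380 stood after NaCl at 3.02 and 3.04 in OX, against 2.39 and 2.39 in OX water, and at 3.47 and 3.83 in WT, against 2.08 and 2.64 in WT water. The difference was 0.64 in OX (adjusted p = 0.309) and 1.29 in WT (adjusted p = 0.0328, limma), and without any 1 of the 4 WT water and NaCl arrays it no longer passed (adjusted p from 0.0528 to 0.245). On the other side of HAT2, AT5G47360 fell by 0.69 in OX after NaCl (adjusted p = 0.0100, limma) and stood at -0.49 in WT (adjusted p = 0.0625); the OX call was lost without OX water replicate 2 or either OX NaCl array. None of the 5 was called after IAA or MV. After IAA 0.207% of probe sets were called higher in OX and 0.193% in WT. Under MV 1.21% and 2.56% were called higher, and 0.246% and 1.77% lower. AT5G47380 differed from water after IAA by 0.83 in OX and 1.19 in WT. In MV it differed by -0.36 in OX and -0.59 in WT, and none of these 4 differences passed.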
